A study of Mus musculus with 7 samples.

Results

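Wide H3K27me3 islands over 3 windows of the mouse genome that hold the neural genes Ncam1, Drd2, Auts2, Ephb2 and Epha8 were followed liver by liver. The members were all islands that overlapped chromosome 9 from 49150000 to 49900000 (Ncam1 and Drd2), chromosome 5 from 132550000 to 133750000 (Auts2) or chromosome 4 from 136150000 to 136550000 (Ephb2 and Epha8), in build mm9. They came to 199 of the 122262 islands in 7 lists: 55 in the Ncam1-Drd2 window, 131 in the Auts2 window and 13 in the Ephb2-Epha8 window. The windows were selected on the width and score of their islands in these same livers, so width, cover and high rank are given as a description only, with no test against other regions. Vehicle and TCPOBOP livers were compared within them, a contrast that the rule names for description. The windows were also chosen with earlier results of these data known.

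H3K27me3 was measured by chromatin immunoprecipitation and sequencing in male CD-1 (ICR) mice, an outbred stock obtained at 7 weeks of age. A control group of 3 mice received DMSO in corn oil (vehicle), and 4 mice received TCPOBOP at 3 mg/kg, 27 h before the tissue was collected. TCPOBOP is an agonist of CAR, the constitutive androstane receptor, which induces drug-metabolising enzymes in hepatocytes. Each list came from the frozen liver of a separate animal, and the library descriptions in the labels carry the same run and lane code. Chromatin of all liver cell types was pooled, so a mark present in part of the cells cannot be told apart from a weaker mark in all of them.

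H3K27me3 is the trimethyl mark that Polycomb repressive complex 2 places on histone H3 over silent genes, often over long stretches at developmental genes that a tissue does not use. CpG-rich promoters are typical starting points of this system in mammals. Ncam1 encodes a cell adhesion molecule of neurons and Drd2 a dopamine receptor. Auts2 encodes a regulator of neuronal development that has been found in variant Polycomb complexes. Ephb2 and Epha8 encode Eph receptor tyrosine kinases, which bind membrane-held ephrins and steer growing axons.

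RefSeq promoter windows of 300 bases, from build GRCm38.p6, were matched by symbol for 3 of the 5 genes, Drd2, Ephb2 and Epha8. They are set out here because CpG content was not used to choose the windows. The 32851 promoter windows of all genes had a median of 7 CpG dinucleotides and a median G+C content of 52.7%. The motif searched was CG, which reads the same on both strands, and 94.6% of all promoter windows held at least 1. The Epha8 promoter held 56 CpG and had 84.3% G+C, and 0.195% of all promoter windows held as many. The Ephb2 promoter held 24 CpG with 68.7% G+C, and the Drd2 promoter 23 CpG with 70.3% G+C. As many CpG as these were found in 20.0% and 21.5% of all promoter windows. The ratio of observed to expected CpG was 1.06 for Epha8, 0.681 for Ephb2 and 0.621 for Drd2, against a median of 0.384. All 3 promoters were thus richer in CpG than the median promoter, and Epha8 stood near the top of all genes.

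The bases that lie upstream of the annotated gene are printed for Drd2 and Epha8, 207 for each, 5′ to 3′ on the strand of the gene, with each CpG in capitals. The stretch lies at chr9:49340153-49340359 on the plus strand for Drd2 and at chr4:136956860-136957066 on the minus strand for Epha8. These positions are in GRCm38.p6 and cannot be set against the island coordinates, which are in mm9.
Drd2: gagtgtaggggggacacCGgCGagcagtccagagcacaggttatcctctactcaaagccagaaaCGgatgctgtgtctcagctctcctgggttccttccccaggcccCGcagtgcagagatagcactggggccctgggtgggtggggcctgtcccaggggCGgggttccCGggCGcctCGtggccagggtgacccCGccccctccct
Epha8: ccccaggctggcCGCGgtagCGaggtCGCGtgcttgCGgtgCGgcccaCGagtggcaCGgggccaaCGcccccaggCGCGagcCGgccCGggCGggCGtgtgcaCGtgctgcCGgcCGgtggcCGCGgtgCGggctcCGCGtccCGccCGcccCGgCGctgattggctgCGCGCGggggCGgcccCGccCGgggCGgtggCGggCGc
The printed Drd2 stretch held 9 CpG and the Epha8 stretch 37.

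In the gene order of the RefSeq table, Ankk1 and Ttc12 lie between Drd2 and Ncam1. The complement genes C1qb, C1qc and C1qa, which macrophages express, lie between Ephb2 and Epha8. Auts2 has Galnt17 and Castor2 as its neighbours. The promoter window of Ttc12 held 14 CpG, that of C1qb 6 and that of C1qc 3, so those of C1qb and C1qc lay below the median CpG count of all genes. The lists give no gene names and no annotation of their build was used, so an island is placed in a window and not over a given exon, and the labelled tissue was not checked against marker genes.

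An island is a run of 400-bp bins with enriched reads, joined across gaps of up to 2400 bp, and islands of a list lay at least 2800 bp apart. Per list there were 14167 to 20550 islands, which spanned 537 to 605 Mb. Vehicle replicate 1 had the fewest islands, and vehicle replicate 2 and TCPOBOP replicate 2 had the shortest total length. The lists give no read numbers, and the depth of the libraries is unknown here. The score of an island is the authors' own value and grows with island length and library depth. It was read mainly as a rank within its list or per 400-bp bin beside the other islands of that list. Where scores per 400-bp bin are set side by side across livers, differences in depth are not removed.

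**Figure D1:**
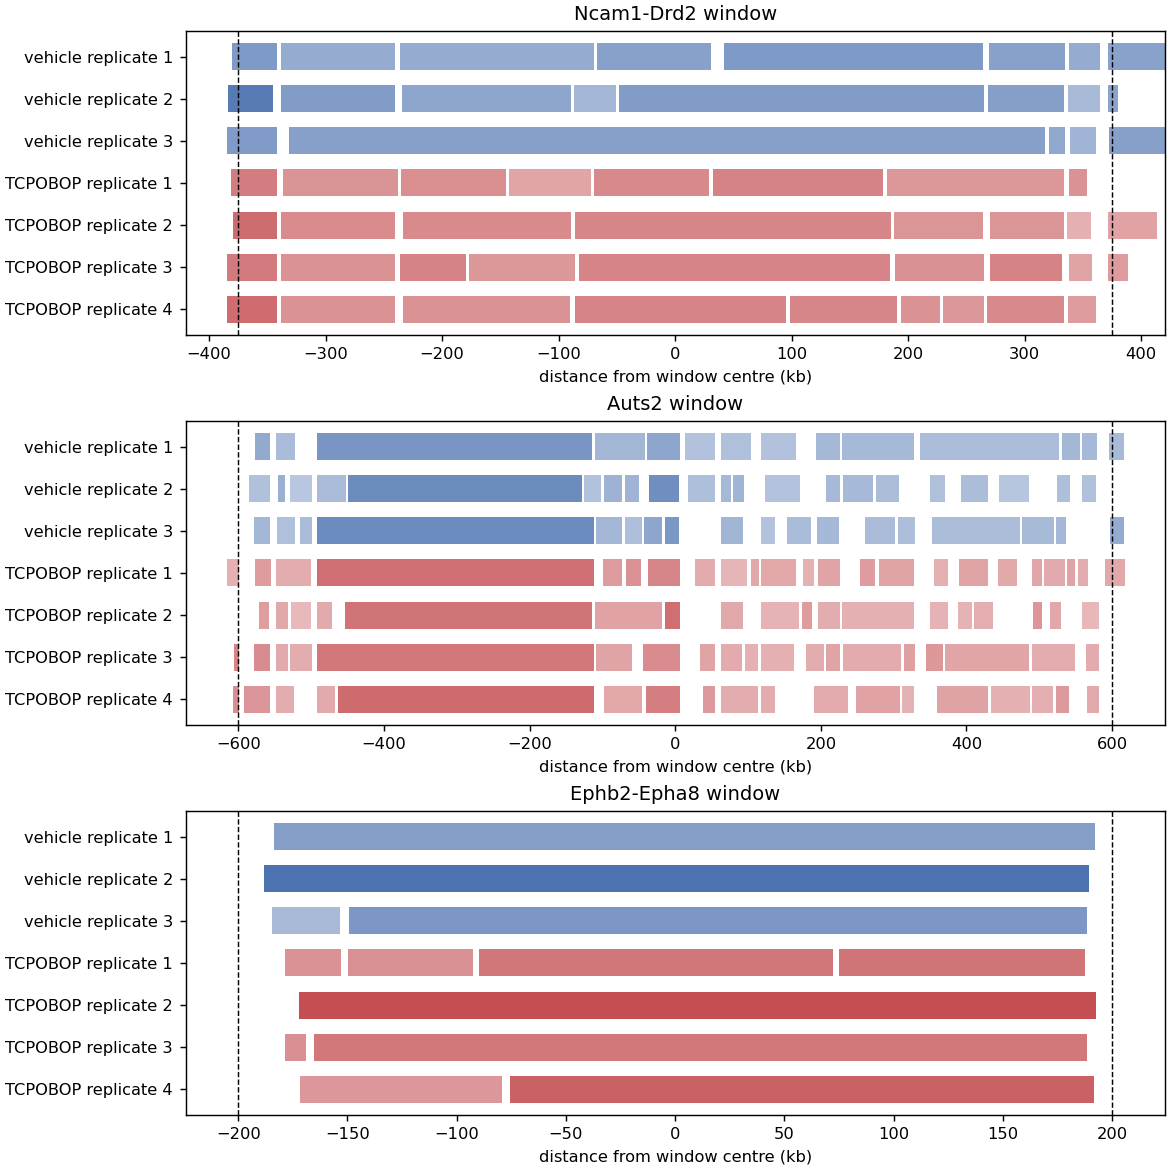
Islands of each liver (rows; blue, vehicle; red, TCPOBOP) in the 3 windows, against the distance from the window centre in kb. Dashed lines mark the window ends, darker bars have a higher score per 400-bp bin (up to a limit), and islands that run past the plotted range are clipped. The Ncam1-Drd2 and Ephb2-Epha8 windows are almost filled in all 7 livers, whereas the Auts2 window holds a dense block in its left part and separate islands on both sides of it.

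The mark filled nearly all of the Ncam1-Drd2 window in every liver. Islands covered 95.15, 95.73 and 96.32% of its 750 kb in vehicle replicates 1 to 3 and 94.13, 94.77, 94.40 and 94.08% in TCPOBOP replicates 1 to 4. The lowest vehicle liver lay above the highest TCPOBOP liver, so the groups did not overlap, although the whole range was only 2.24 percentage points. In all, 85.7% of the window was under an island in all 7 livers and 1.60% in none of them. The uncovered bases in all 7 lists fell in 3 stretches, the longest of them 6.80 kb.

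Most of this window belonged to a continuous domain, the union of overlapping islands of all livers, from 49186401 to 49859200. It was 672.8 kb long and ranked 6 by length and 4 by summed cover among the 6624 regions found in all 7 livers, whose median length was 68.0 kb. Domain cover was 96.55, 97.68 and 98.57% in vehicle livers and 97.56, 97.21, 96.85 and 96.43% in TCPOBOP livers, and here the groups overlapped. Its mean cover, 97.3%, compared with a median of 75.5% over those regions. The domain held 0.764 islands per 100 kb, against a median of 2.31.

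What varied from liver to liver was where this domain was broken. Vehicle replicate 3 had an island of 649.6 kb, the fourth of its list by score, with 1 break in the whole domain. In the other livers the domain was split by 4 to 6 breaks and its widest parts were much shorter. The top island was 222.4 kb in vehicle replicate 1 and 312.8 kb in vehicle replicate 2. With TCPOBOP it was 146.4, 271.2, 267.2 and 181.2 kb.

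Breaks were narrow and few places were shared. By definition a base open in every liver ends the domain, so the sharing of breaks was limited in advance. The breaks of all livers fell at 16 places, 11 of which were found in 1 liver, and they were 2.80 to 11.2 kb wide. The place most often broken lay between 49284401 and 49291600 and was open in 6 livers, all but vehicle replicate 3. The next, between 49789201 and 49794800, was open in 5 livers, 2 in vehicle livers and 3 in TCPOBOP livers. The widest break, 11.2 kb in vehicle replicate 1, lay at a place that TCPOBOP replicate 1 also had open, by 3.20 kb.

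The ends of the Ncam1-Drd2 domain were close to constant, but the mark went on beyond both. The bounding stretches open in all 7 livers were only 2.80 kb on the left and 2.40 kb on the right. The next region on the left had a mean cover of 93.2% in vehicle and 94.9% in TCPOBOP livers. On the right these were 91.1% and 70.1%. The left end was at 49186401 in 5 livers, 1.60 kb further in for TCPOBOP replicate 1 and 6.80 kb further in for vehicle replicate 3. The right end varied by 2.40 kb over all 7 livers. Over all regions found in 7 livers the median range was 12.8 kb for the left end and 12.4 kb for the right end.

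The rank by score of the top island moved more between livers than the rank of the score summed over the domain. The part of the breaks in this was not tested. The top island ranked 57, 86 and 4 in vehicle replicates 1 to 3 and 155, 114, 49 and 142 in TCPOBOP replicates 1 to 4. When scores were summed over the domain and ranked among the regions of each list, the ranks were 4, 28 and 6 in vehicle livers and 10, 29, 6 and 10 in TCPOBOP livers. The livers numbered 2 of both groups ranked lowest in this summed measure, at 28 and 29. As a percentage of list length the rank of the top island was 0.317 ± 0.263% in vehicle livers (SD, n = 3) against 0.621 ± 0.240% in TCPOBOP livers (SD, n = 4; difference 0.303, 95% interval -0.527 to 0.749, exact permutation p = 0.143).

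The comparison of the groups asked whether H3K27me3 in these windows differed after activation of CAR. Cover of the Ncam1-Drd2 window was 95.7 ± 0.587% in vehicle livers (SD, n = 3) against 94.3 ± 0.317% in TCPOBOP livers (SD, n = 4). The difference was -1.39 percentage points (95% interval -2.24 to -0.373, exact permutation test, two-sided, p = 0.0286), and 0.0286 is the smallest value that 3 against 4 livers allow. Of all regions tested, 3.45% had cover that did not overlap between the groups. Among genome tiles of 750 kb with any island 2.83% did not overlap and 1.11% were lower with TCPOBOP in this way, and among tiles with a mean cover of at least 70% the shares were 4.07% and 2.44%. No p of this size could pass adjustment over all regions, and 15 such single values were compared across the 3 windows.

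The lower cover of this window after TCPOBOP did not come mainly from the domain. Of the mean difference, -3.97 kb lay in the domain and -5.97 kb in a separate region of 28.4 kb to its right, from 49861601 to 49890000. That region had 27.2, 27.6 and 22.8 kb under islands in the vehicle livers and 16.0, 20.4, 19.6 and 23.6 kb in the TCPOBOP livers, so its groups overlapped. Its covered fraction differed by -21.0 percentage points (SE 10.2, limma, unadjusted p = 0.0430, adjusted p = 1). For the domain the difference was -0.590 percentage points (SE 3.04, limma adjusted p = 1). Measured over the domain in place of the window, cover differed by -0.590 percentage points with an exact permutation p of 0.343, so the separation of the groups did not hold there.

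The 750 kb to the right of the window showed the same order of the groups. Its cover was 51.1 ± 1.76% in vehicle livers (SD, n = 3) against 47.95 ± 1.05% in TCPOBOP livers (SD, n = 4; exact permutation p = 0.0286), and the 750 kb to the left had 46.0 ± 2.01% and 47.1 ± 2.10% (exact permutation p = 0.514). Among genome tiles of 750 kb with any island, 2.83% did not overlap between the groups and 1.11% were lower with TCPOBOP in this way. The region from 49896801 to 49964000 crosses from the window into the right flank, so window and flank are not independent. The 6 flank values tested are not counted among the 15 above.

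**Figure D2:**
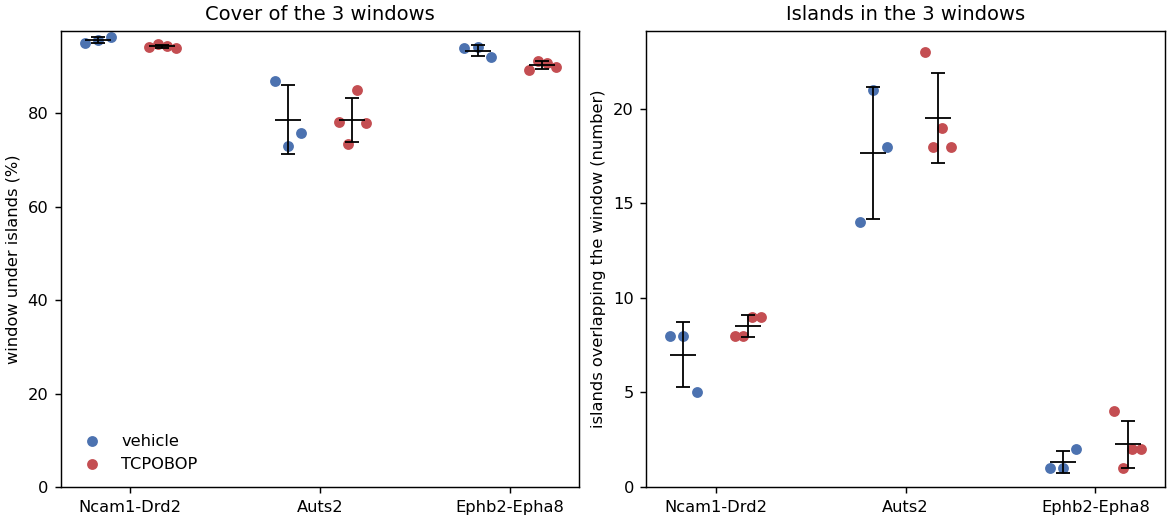
Left, percent of each window under islands; right, number of islands that overlap each window. Points are livers (blue, vehicle, n = 3; red, TCPOBOP, n = 4) and bars are means with SD. Cover of the Ncam1-Drd2 and Ephb2-Epha8 windows is above 89% in every liver with a small gap between the groups, and the Auts2 window has the most islands, 14 to 23, and the widest spread of cover.

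Ncam1-Drd2 island numbers were 8, 8 and 5 in vehicle livers and 8, 8, 9 and 9 in TCPOBOP livers. The means, 7.00 ± 1.73 (SD, n = 3) and 8.50 ± 0.577 (SD, n = 4), differed by 1.5 islands (95% interval 0 to 4, exact permutation p = 0.171). With islands up to 5 kb apart joined, the difference turned to -1.17 (exact permutation p = 0.371). The left end of the domain differed by -1.87 kb (95% interval -6.80 to 1.60, exact permutation p = 0.714) and the right end by -0.767 kb (95% interval -4.27 to 0.400, exact permutation p = 0.286).

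The Auts2 window was not a single wide domain. It held a dense domain of 499.2 kb in its left part, from 132657601 to 133156800, and a patchwork of narrower islands over the 593.2 kb to the right of it. Narrower regions with islands in all 7 livers also lay left of the domain, from 132558401 to 132594400 and from 132602001 to 132651200. The domain was 98.6, 93.8 and 97.0% covered in vehicle livers and 94.2, 94.9, 96.3 and 95.2% in TCPOBOP livers. To its right the cover was 85.03, 57.25 and 61.02% in vehicle livers and 67.0, 58.7, 79.2 and 67.0% in TCPOBOP livers. Both parts showed overlapping groups, and the right part spread far more between livers than the domain.

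Inside the domain lay a core of 320.8 kb, from 132700801 to 133021600, that was under a single island in all 7 livers. It was the longest stretch shared by all livers in any of the 3 windows, the next being 148.0 kb in the Ephb2-Epha8 window. The top island of the Auts2 window contained it in every list and was 378.8, 320.8 and 380.0 kb wide in vehicle livers and 380.0, 339.6, 380.4 and 351.2 kb wide in TCPOBOP livers. Its end at the right of the core fell between 133035600 and 133038400 in 6 livers and at 133021600 in vehicle replicate 2.

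Both ends of the Auts2 domain fell at nearly the same base in each liver. The left end varied by 0.8 kb, 2 bins, over the 7 lists, which stood at percentile 4.21 of the ranges of all regions found in 7 livers. The right end varied by 2.00 kb. Stretches open in all 7 livers, 6.40 kb on the left and 6.80 kb on the right, bounded the domain, with further islands beyond both. Breaks within the domain fell at 7 places, and the place between 133035601 and 133052000 was broken in all 7 livers, with a width of 2.80 to 14 kb. A further place between 133090801 and 133114400 was broken in 6 livers, all but TCPOBOP replicate 2.

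The top island of the Auts2 window was among the strongest of most lists. It ranked 5, 50 and 10 in vehicle replicates 1 to 3 and 7, 39, 7 and 9 in TCPOBOP replicates 1 to 4. Its score per 400-bp bin was 4.99 to 5.86, against list medians of 2.56 to 3.05. In the right part of the window the score per 400-bp bin was 2.05 to 2.39 and the best island of a list ranked 506 to 5324. Over the whole domain the score per 400-bp bin was 4.554 to 5.285, although single islands of it were as low as 1.795, in vehicle replicate 2. Taken as wholes, domain and right part therefore differed in density in all 7 livers, a contrast that was noticed in these same data.

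No difference between the groups was detected in the Auts2 window. Its cover was 78.6 ± 7.37% in vehicle livers (SD, n = 3) against 78.6 ± 4.76% in TCPOBOP livers (SD, n = 4), with a 95% interval of the difference from -13.5 to 14.9 percentage points (exact permutation p = 1). The widest interval of the 3 windows belongs to it, and a change of several percentage points was not detectable. Island numbers were 14, 21 and 18 in vehicle livers and 23, 18, 19 and 18 in TCPOBOP livers, a difference of 1.83 (95% interval -3 to 10, exact permutation p = 0.457). For the domain alone limma gave -1.34 percentage points (SE 3.40, adjusted p = 1).

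The left end of the Auts2 domain had the same mean position in both groups, 0.400 kb from the domain start (95% interval of the difference -0.933 to 0.933 kb, exact permutation p = 1). The right end lay 0.8 kb further out with TCPOBOP (95% interval -0.400 to 2, exact permutation p = 0.200). Rank of the top island, as a percentage of list length, was 0.133 ± 0.151% in vehicle livers (SD, n = 3) against 0.0894 ± 0.0984% in TCPOBOP livers (SD, n = 4; exact permutation p = 0.514). Its difference of -0.0433 (95% interval -0.273 to 0.300) turned to 0.0437 without vehicle replicate 2.

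Variable stretches of the Auts2 window lay mostly right of the domain. Of the whole window 49.4% was under islands in all 7 livers, 46.2% in 1 to 6 livers and 4.40% in none. The longest variable stretch, 57.2 kb from 133579201 to 133636400, was covered in 4 to 6 livers and was mostly open in TCPOBOP replicates 1 and 2. A region of 41.6 kb from 133163601 to 133205200, just right of the domain, had no island in vehicle replicate 3 and TCPOBOP replicate 2 and was covered over its full length in vehicle replicate 1. Of the 9 merged regions that overlapped this window, limma gave an adjusted p of 1 for each.

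**Figure D3:**
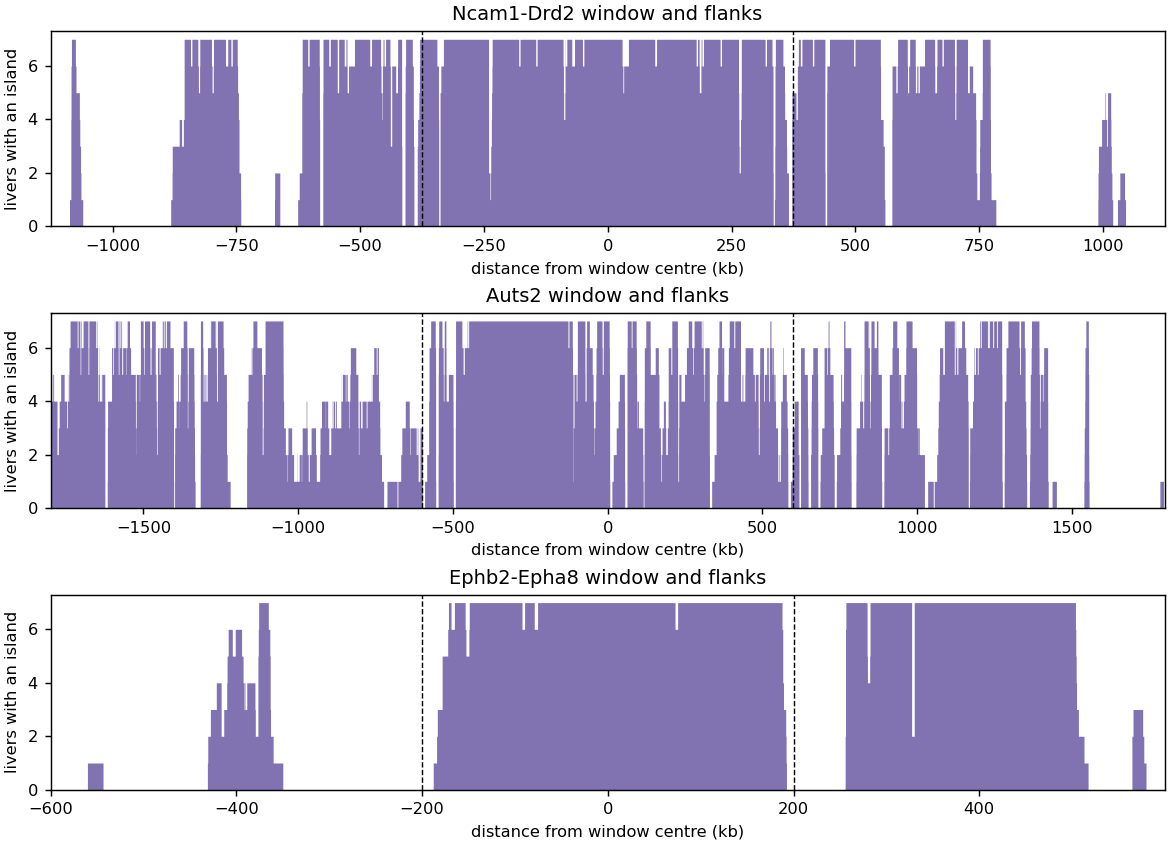
Number of livers, of 7, with an island at each position of the 3 windows and of flanks as long as the window on each side, against distance from the window centre in kb; dashed lines mark the window ends. The core of the Auts2 domain and most of the other 2 windows reach 7 livers without interruption or with short breaks, and the left flank of the Ephb2-Epha8 window is largely empty.

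The Ephb2-Epha8 window held the shortest of the 3 domains and the one with the fewest islands per 100 kb, 0.488. In vehicle replicates 1 and 2 and in TCPOBOP replicate 2 a single island of 375.6, 377.2 and 364.8 kb filled over 91% of the 400 kb window. Vehicle replicate 3 and TCPOBOP replicates 3 and 4 had 2 islands each, and TCPOBOP replicate 1 had 4. The domain, the only merged region of the window, ran from 136162001 to 136542400 and was 380.4 kb long. It ranked 86 by length among the regions found in all livers, and 85.5% of the window was under islands in all 7 livers.

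Breaks in this domain were rare and differed between livers. A base open in every liver cannot lie in the domain, so shared breaks were limited in advance here too. There were 5 places, of which 4 were broken in 1 liver, and none was over 4.40 kb wide. The place between 136196401 and 136200800 was open in vehicle replicate 3 and TCPOBOP replicate 1. Breaks summed to 0, 0 and 4.40 kb in vehicle replicates 1 to 3 and to 8.80, 0, 3.60 and 3.60 kb in TCPOBOP replicates 1 to 4.

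Cover of the Ephb2-Epha8 window was lower in every TCPOBOP liver than in every vehicle liver. It was 93.9, 94.3 and 92.1% in vehicle livers and 89.3, 91.2, 90.8 and 89.9% in TCPOBOP livers. The means, 93.4 ± 1.17% (SD, n = 3) and 90.3 ± 0.860% (SD, n = 4), differed by -3.13 percentage points (95% interval -5.47 to -0.900, exact permutation p = 0.0286). Of all genome tiles of 400 kb with any island, 3% had cover that did not overlap between the groups, and 1.08% were lower with TCPOBOP in this way. Among tiles with a mean cover of at least 70% the shares were 2.89% and 1.05%. The domain itself was covered to 98.74, 99.16 and 96.85% in vehicle livers and to 93.9, 95.9, 95.5 and 94.5% in TCPOBOP livers, again without overlap, as in 4.09% of the regions found in all 7 livers (2.17% lower with TCPOBOP). Those regions had a median cover of 75.5%, well below that of this domain, and no share is given for regions covered as highly. In the fit across all regions the domain differed by -3.30 percentage points (SE 3.24, limma adjusted p = 1).

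That difference lay mainly at the left end of the domain. Measured from the domain start, the first island began at 4.40, 0 and 3.60 kb in the vehicle livers and at 9.60, 15.6, 9.60 and 16.4 kb in the TCPOBOP livers. The groups did not overlap, and the means, 2.67 ± 2.34 kb (SD, n = 3) and 12.8 ± 3.71 kb (SD, n = 4), differed by 10.1 kb (95% interval 2.67 to 18.5, exact permutation p = 0.0286). Left ends that did not overlap between the groups were found in 3.49% of the 6624 regions present in all livers, and in 1.78% they lay further right with TCPOBOP. With lists cut to equal total island length the difference was 13.4 kb and no longer passed the test (exact permutation p = 0.0571).

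Of the 12.5 kb by which mean cover was lower, 10.1 kb lay before the first island and 2.53 kb in breaks. The right end, at 377.9 ± 1.89 kb from the domain start in vehicle livers (SD, n = 3) against 378 ± 2.36 kb in TCPOBOP livers (SD, n = 4), differed by 0.133 kb (95% interval -5.47 to 5.73, exact permutation p = 0.943). The left end was also the more variable end over the 7 livers, with a range of 16.4 kb against 4.80 kb at the right. Among all regions found in 7 livers these ranges stood at percentiles 60.0 and 23.1, so a left end that varies this much was common.

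Island numbers of 1, 1 and 2 in vehicle livers and 4, 1, 2 and 2 in TCPOBOP livers differed by 0.917 (95% interval -2 to 5, exact permutation p = 0.371). The top island ranked 11, 5 and 15 in vehicle livers and 82, 6, 8 and 14 in TCPOBOP livers. Rank as a percentage of list length differed by 0.0746 (95% interval -0.164 to 0.682, exact permutation p = 0.83), and without TCPOBOP replicate 1, whose domain was split most, by -0.0122. Score summed over the domain placed that liver at rank 32, between the others.

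**Figure D4:**
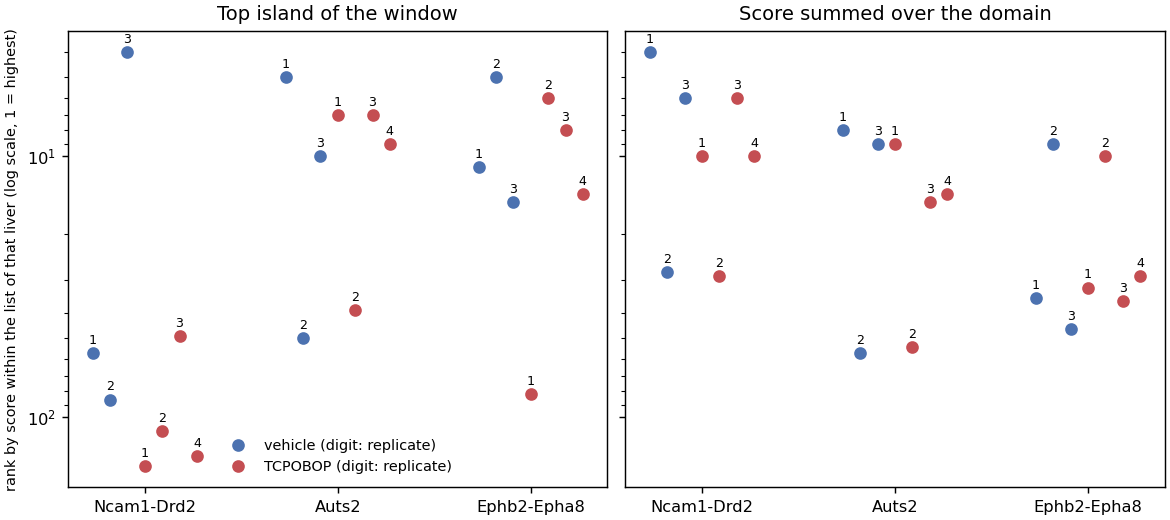
Rank by score within the list of each liver (log scale, 1 at the top), left for the top island of each window and right for the score summed over the domain and ranked among merged regions. Each point is a liver (blue, vehicle; red, TCPOBOP) with its replicate number. In the summed measure the livers numbered 2 lie below the others for Ncam1-Drd2 (ranks 28 and 29) and Auts2 (57 and 54) and above them for Ephb2-Epha8 (9 and 10).

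The livers numbered 2 of both groups stood apart in all 3 windows, and not in the same direction. In the Ephb2-Epha8 domain the score per 400-bp bin was 9.30 in vehicle replicate 2 and 9.27 in TCPOBOP replicate 2, against 4.37 to 5.60 in the other 5 livers. Medians over all islands were 3.02 and 3.05 in these 2 lists and 2.56 to 2.79 in the others, so the medians differed far less. The upper part of the lists differed more: a score per bin of 6.84 stood at percentile 91.1 in vehicle replicate 2, and 4.37 at percentile 91.8 in vehicle replicate 1. Among the regions of its own list the domain stood at percentiles 96.1 and 96.8 in the livers numbered 2. In the others it stood at 89.1 to 92.9. By summed score the domain ranked 9 and 10 in these livers and 29 to 46 in the others. The Auts2 domain ranked 57 and 54 there, against 8 to 15 elsewhere, and the Ncam1-Drd2 domain 28 and 29, against 4 to 10.

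This pattern crossed the treatment groups, as each held 1 of these livers. The difference in left end of the Ephb2-Epha8 domain was 7.87 kb without both of them, and that in cover of the window -3 percentage points (exact permutation p = 0.1 for each, the smallest that 2 against 3 livers allow). Both lists also had the shortest total island length, 537.2 Mb, and the part of this in the results was not tested.

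Across the genome no region passed the limma test between vehicle and TCPOBOP livers. In simulated data where every region had the pooled spread, an SD of 30.6 percentage points, the test recovered only complete losses of cover. With an SD of 3 points it recovered all losses of 25 points. Cover of the 3 domains varied less than the pooled spread, with SDs within groups of 0.484 to 2.49 points. Their SEs in the fit were 3.04 to 3.40 points, above those SDs, as limma draws each variance towards that of other regions. Neither simulated case mixed steady and variable regions, so neither gives the recovery for these domains. Of 13988 regions with an island in at least 2 livers, 0 (0%) had an adjusted p under 0.05 by limma, and 542 (3.87%) an unadjusted p under 0.05. The count was 13 without trend and robust variance, and 1 when all 17394 merged regions were tested. None of the 14 merged regions that overlapped the 3 windows passed, and 2 had an unadjusted p under 0.05. Both lay at the right end of the Ncam1-Drd2 window. The region of 28.4 kb has been described, and the region from 49896801 to 49964000, of which only the start lies in the window, had 98.2 ± 2.60% cover in vehicle livers (SD, n = 3) against 88.1 ± 8.00% in TCPOBOP livers (SD, n = 4; difference -10.1 percentage points, SE 4.43, limma adjusted p = 1).

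**Figure D5:**
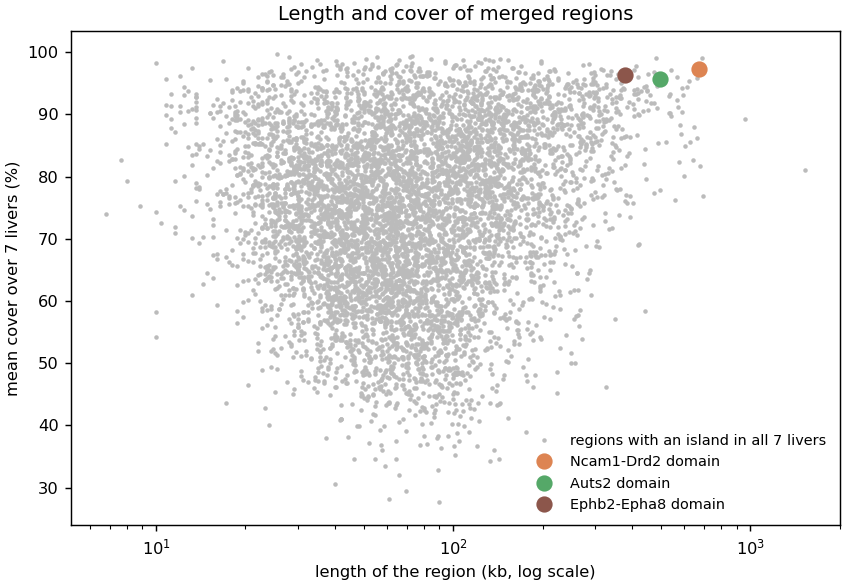
Length in kb (log scale) and mean cover over 7 livers in percent of 6624 regions covered to some extent in every liver (grey) and of the 3 domains (coloured). The 3 domains lie at the upper right, with lengths of 672.8, 499.2 and 380.4 kb and mean cover of 97.3, 95.7 and 96.4%.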

How the data were processed

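Per the submitters' processing notes, reads were handled with Bowtie2 2.3.2 and SICER 1.1 on mm9. List names give 400 bp as the window, 2400 bp as the gap and 100 as the E-value. Each of the 7 deposited lists gives the islands of 1 liver with the authors' score. Duplicate handling and input control are not given in the sources used here.

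Covered bases, islands, breaks, domain ends and ranks were computed with Python 3.11.15 and numpy 2.4.6. Groups were compared by exact two-sided permutation tests over 35 splits, with 95% intervals from inverting the test, and cover of all merged regions by limma 3.58.1 in R 4.3.3 (regions with islands in at least 2 livers, trend and robust variance, Benjamini-Hochberg adjustment, threshold 0.05). The fit was tested on simulated data in which every region had the same spread. With the pooled spread of all regions (SD 30.6 percentage points) it recovered most complete losses of a region's cover and none of the partial losses tried. With an SD of 3 points it recovered all losses of 25 points or more. A count of 0 calls therefore says little about partial losses in regions that vary widely between livers. The low-spread case does not carry over to steady regions that are fitted together with variable ones. The members, windows and gene lists were chosen with earlier results of these data known. The 5 genes are always named. Further gene lists planned (Eph receptors, ephrins, dopamine receptors, neural adhesion genes, Auts2 relatives) need gene positions in mm9 and were not analysed here. Alternatives were score cuts, left-out livers, joined islands, a replicate block and other limma settings.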

Additional observations from a re-analysis of the deposited data

Results flagged for a closer look

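In 7 of 21 measures, 1 of the 4 TCPOBOP livers lay far from the rest. Chance does this in about 1 in 20 independent measures without ties, a rate that cannot be applied to this count, since several measures share a liver and its scores and both measures of domain ends have 3 tied livers, where any gap is picked out. In the Ncam1-Drd2 window the domain of TCPOBOP replicate 1 began 1.60 kb from the domain start, against 0 kb in the others, that of TCPOBOP replicate 3 ended at 670.4 kb, against 672.4 kb, and the top island of TCPOBOP replicate 3 ranked at 0.265% of its list, against 0.692 to 0.772%. In the Auts2 window the top island of TCPOBOP replicate 2 ranked at 0.237% of its list, against 0.0341 to 0.0489%, and its domain ranked 54 by summed score, against 9 to 15. In the Ephb2-Epha8 window the top island of TCPOBOP replicate 1 ranked at 0.399% of its list, against 0.0364 to 0.0761%. The domain of TCPOBOP replicate 2 there had a score per 400-bp bin of 9.27, against 4.91 to 5.60. Among the regions of its own list this stood at percentile 96.82, against 92.85 to 92.94. Vehicle livers, 3 in number, were not examined in this way.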

How the results depend on the processing

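Of the 3 single values past the threshold, each lost the call when any liver was left out, since fewer livers cannot reach it: cover of the Ncam1-Drd2 window ran from -1.68 to -1.09 percentage points, cover of the Ephb2-Epha8 window from -3.80 to -2.70, and its left end from 8.80 to 11.2 kb. With the replicate block, 3 pairs allow no p under 0.25 and gave -1.30 and -3 points for those covers. Deviations from the group means of livers with the same number correlated at 0.0269, 0.279 and 0.0693. For livers with different numbers the correlations ran from -0.175 to 0.106, so only the livers numbered 2 exceeded that range. No label says that equal numbers pair the livers, and whether they do was not tested. Without both livers numbered 2, chosen after seeing the data, cover of these windows differed by -1.53 and -3 points and the left end by 7.87 kb. With equal list lengths the left end gave 13.4 kb, and over the domain Ncam1-Drd2 cover gave -0.590 points.

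Values that missed the threshold and changed sign were mostly near 0. Auts2 cover, 0.0167 points, ran from -2.75 to 4.20 with a liver left out and was -0.322 without the lowest 10% of scores, -1.05 with equal list lengths, -1.34 over the domain and -1.03 without both livers numbered 2; islands over the Auts2 domain differed by -0.917. Joining islands up to 5 kb apart gave -1.17 islands for Ncam1-Drd2. With a liver left out, the Ncam1-Drd2 left end ran from -3 to 0.400 kb, the Ephb2-Epha8 right end from -0.667 to 1.20 kb (-1 without both livers numbered 2), and the rank of the top island from -0.0924 to 0.0437 for Auts2 and from -0.0122 to 0.109 for Ephb2-Epha8, where summed scores gave -0.0540. The cause was not tested. Limma called 0 regions with any liver left out, 13 without trend and robust variance and 1 with all merged regions. None of these settings gave a domain an adjusted p under 0.05.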

Other observations

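Livers shared most of their covered bases in the Ncam1-Drd2 and Ephb2-Epha8 windows and fewer in the Auts2 window. The shared fraction of covered bases (Jaccard index) over 21 pairs of livers ran from 0.934 to 0.976 for Ncam1-Drd2, from 0.936 to 0.986 for Ephb2-Epha8 and from 0.709 to 0.867 for Auts2. The most alike pair in the Auts2 window crossed the groups, vehicle replicate 1 with TCPOBOP replicate 3, and the least alike were vehicle replicates 2 and 3. In the flanks of the Ephb2-Epha8 window the 400 kb to the left had 10.6 ± 7.12% cover in vehicle livers (SD, n = 3) against 13.2 ± 1.76% in TCPOBOP livers (SD, n = 4). The 400 kb to the right had 63.6 ± 3.32% and 63.4 ± 2.76%, and 60.3% of it was under islands in all 7 livers.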
